A study of Mus musculus with 6 samples.

Results

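The nuclear-encoded subunits of the mitochondrial respiratory chain were followed through the germ and somatic cell types of the developing mouse ovary. The set was chosen by gene name alone: every listed symbol that begins with Ndufa, Ndufb, Ndufc, Ndufs, Ndufv, Uqcr, Cox4i, Cox5, Cox6, Cox7, Cox8 or Atp5, together with Sdha, Sdhb, Sdhc and Sdhd. Assembly factors of the Ndufaf type, Ndufa4l2, pseudogenes and provisional gene models were left out. This gave 84 gene identifiers (83 symbols, Atp5o being listed under 2 identifiers) of 31053 listed genes. Complex I was represented by 36 genes, complex II by 4, complex III by 8, complex IV by 19 (Ndufa4 among them) and complex V by 17. At least 1 UMI was found for each of them, 77 reached 50 CPM in at least 1 cell class, and 59 did so in every class. CPM is the level used throughout: the UMIs of a gene in a class, scaled so that every class has the same total.

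The respiratory chain sits in the inner mitochondrial membrane. Complexes I and II feed electrons from NADH and succinate to ubiquinone, complex III passes them on to cytochrome c, and complex IV gives them to oxygen. Complexes I, III and IV pump protons, and complex V, the ATP synthase, lets them flow back to make ATP. A few core subunits are encoded in mitochondrial DNA, and the many others come from nuclear genes and are imported. Several complex IV and V subunits exist as paralogues, some of them known from testis (Cox6b2, Cox7b2, Cox8c) or from heart and skeletal muscle (Cox6a2, Cox7a1, Cox8b).

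Single-cell RNA was measured at 5 stages of the XX gonad of ICR mice, E10.5, E11.5, E12.5, E13.5 and E14.5 (days of embryonic development). The sixth group, Induced D6, consisted of somatic cells of gonadal type made from 129svj x C57BL/6J embryonic stem cells. The induced cells had been kept as aggregates in 3 successive media of 2 days each, with CHIR, BMP4 and EGF in the first, BMP4, retinoic acid, PD0325901, SHH and EGF in the second, and BMP4 and FGF9 in the last. Induced and embryonic cells therefore differ in strain as well as in origin, and these cannot be told apart. Each of the 6 groups is 1 library, so no difference has a replicate check, no test was possible, and every interval below is a 95% interval for counting error only.

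The libraries held 37606947 to 52146419 UMIs over 2766 to 7564 barcodes, with median depths of 6271 to 11864 UMIs per barcode, and 2661 to 7067 cells were kept. Pairs of libraries shared 17 to 72 barcodes, and E13.5 and E14.5 shared 114 (2.44% of the smaller library). Cell classes were named from markers and are written as "-like". Germ-cell-like cells numbered 309, 581, 1394 and 1167 at the stages E11.5 to E14.5, while the 18 at E10.5 and the 8 in Induced D6 were too few to use. Gonadal-epithelium-like cells, which pool clusters named supporting-lineage-like, coelomic-epithelium-like or a mixture of both, numbered 495, 1329, 1804, 1886 and 1612 over the stages E10.5 to E14.5, with 2796 in Induced D6. Stroma markers summed to 2384 CPM in this class at E10.5 and 2652 CPM in Induced D6, against 446 to 886 CPM at E11.5 to E14.5. The coelomic epithelium markers summed to 1406 and 1914 CPM there, and the supporting lineage markers to 246 and 865 CPM. The stroma-like classes of these 2 libraries held 2218 and 6602 CPM of stroma markers. The epithelial name is thus less certain at E10.5 and in Induced D6. In the germ-cell-like classes 15 of 15 germ cell markers had at least 1 UMI, summing to 4162 to 5756 CPM. At 10 CPM or more were 13, 14, 14 and 10 of them from E11.5 to E14.5. At E14.5 Nanos3 (0.989 against 9.36 CPM) and Dnd1 (3.33 against 6.87 CPM) were lower in germ-cell-like than in epithelium-like cells, and all the other markers were higher. The 15 markers summed to 22.4, 27.2, 106 and 106 CPM in the epithelium-like classes of E11.5 to E14.5, which is 0.389%, 0.516%, 2.55% and 2.45% of the germ-cell-like level. Stroma-like cells numbered 408 to 2271 per library. Unnamed clusters held 195 to 2370 cells per library.

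Before the values, promoter sequences are shown for 3 members: Atp5g2 and Cox6a1, which hold a full NRF1-type word, and Cox7a1, the member with the largest ratio between germ-cell-like and epithelium-like cells at E11.5, which holds none of the words searched. NRF1 is a transcription factor known for binding promoters of respiratory chain genes. Each run is the 250 bases before the annotated start, read 5′ to 3′ on the gene's strand, from RefSeq (GRCm38.p6): chr15:102671048-102671297 on the minus strand for Atp5g2, chr5:115348959-115349208 on the minus strand for Cox6a1, and chr7:30183921-30184170 on the plus strand for Cox7a1. Capitals mark the words found.
Atp5g2: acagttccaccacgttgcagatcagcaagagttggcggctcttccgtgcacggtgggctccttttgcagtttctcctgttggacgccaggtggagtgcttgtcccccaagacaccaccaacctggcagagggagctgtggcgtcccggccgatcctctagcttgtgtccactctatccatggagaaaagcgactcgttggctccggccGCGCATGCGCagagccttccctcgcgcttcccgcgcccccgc
Cox6a1: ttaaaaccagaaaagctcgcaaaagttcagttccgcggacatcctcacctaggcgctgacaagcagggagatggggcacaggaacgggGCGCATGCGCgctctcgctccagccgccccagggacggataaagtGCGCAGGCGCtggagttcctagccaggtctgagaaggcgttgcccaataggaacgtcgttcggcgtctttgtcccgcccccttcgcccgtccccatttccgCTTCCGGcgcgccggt
Cox7a1: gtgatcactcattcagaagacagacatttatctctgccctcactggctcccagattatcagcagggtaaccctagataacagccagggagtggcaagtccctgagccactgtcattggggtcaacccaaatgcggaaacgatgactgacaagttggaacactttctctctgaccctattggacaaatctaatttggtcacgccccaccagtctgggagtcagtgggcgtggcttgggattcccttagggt
In Atp5g2 the NRF1 word, the run in capitals, lies 42 to 33 bases before the start. In Cox6a1 the same word, its first run in capitals, lies 162 to 153 bases before the start, the looser form GCGCAGGCGC 117 to 108 bases before, and CTTCCGG, the ETS and GABPA word on the other strand, 16 to 10 bases before.

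A promoter entry was found for 67 of the 83 member symbols, and words were searched on both strands of windows of 300 bases that include these runs. The full NRF1 word was held by 5 of the 67 (7.46%; Atp5g2, Atp5k, Cox6a1, Ndufa11 and Uqcrc1) and by 1.07% of all 27025 genes in the table. The looser NRF1 word, in which the bases between the outer GCGC runs are free and which includes every match of the full word, was held by 19 members (28.4%) against 7% of all genes. The ETS and GABPA word CCGGAAG was held by 16 (23.9%) against 9.93%, the YY1 word AAGATGGC by 9 (13.4%) against 3.19%, and the ESRRA word TCAAGGTCA by 2 (2.99%) against 0.466%. All 5 words were thus held by a larger share of the members than of all genes. The member promoters were also richer in G and C, with a median of 57.3% against 52.7%, and the part of base composition in these shares was not tested. A match is a run of letters in the window and not a measured binding site.

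The summed level of the members was highest in the germ-cell-like cells at each of the 4 stages at which they were measured. Of all UMIs, the members made up 3.92%, 4.36%, 4.21% and 4.54% in germ-cell-like cells from E11.5 to E14.5. In gonadal-epithelium-like cells they made up 3.09%, 3.11%, 3.43%, 3.11% and 3.06% over E10.5 to E14.5, with 3.19% in Induced D6. Stroma-like cells lay at 2.99%, 2.99%, 3.33%, 3.04% and 2.84%, with 2.82% in Induced D6, and endothelium-like cells at 2.50% to 3.38%. The 4 germ-cell-like values lay above all 24 others, and the germ-cell-like cells were also deeper than the epithelium-like cells, with median depths of 21683, 17168, 13824 and 9840 UMIs per cell against 11598, 9648, 8461 and 7189 in the same libraries. Endothelium-like cells, with medians of 11367 to 20028 UMIs in these libraries, were deeper than the germ-cell-like cells from E12.5 on. At E13.5 and E14.5 the endothelium-like classes held 2284 and 1787 CPM of endothelium markers. They also held 1349 and 1397 CPM of supporting lineage markers, against 73.9 to 142 CPM at E10.5 to E12.5, so these 2 classes were not clean.

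The lowest summed levels were those of the erythroid-like cells, 1.83% at E10.5 and 1.02% at E11.5. Haemoglobin made up 49.5% of all UMIs in the E10.5 erythroid-like class. With haemoglobin, mitochondrially encoded and cytosolic ribosomal protein genes taken out of the total, the erythroid-like values became 5.82% and 5.56%. On that same scale the germ-cell-like values were 6.08%, 7.12%, 6.94% and 7.35%, and the epithelium-like values were 4.26%, 4.602%, 5.46%, 5.52% and 5.35%, with 4.47% in Induced D6. The germ-cell-like classes thus stayed above the epithelium-like class of their own stage on these 2 scales, whereas the place of the erythroid-like cells depended on the total used. The summed levels were not scaled to the median ratio of all genes. That median fold, germ-cell-like over epithelium-like, was 1.07, 1.10, 1.39 and 1.44 from E11.5 to E14.5. At E13.5 it was larger than the ratio of the 2 summed shares of all UMIs (4.21% and 3.11%), so the excess was not seen on that scale.

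**Figure D1:**
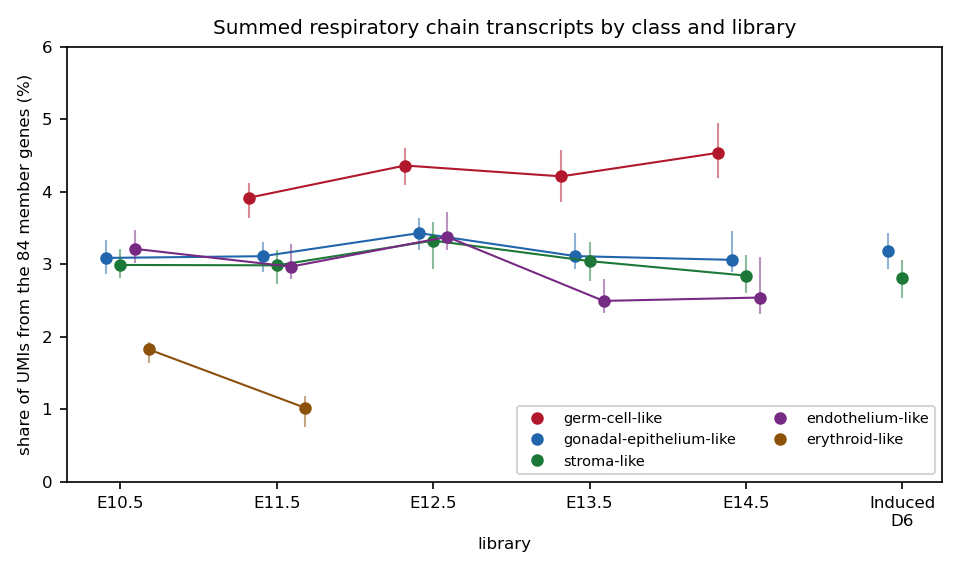
Share of all UMIs (%) that came from the nuclear-encoded respiratory chain genes, by library on the horizontal axis and by cell class; points are sums over a class and bars span the quartiles over its cells. Germ-cell-like points lie at 3.92% to 4.54%, above the epithelium-like points at 3.06% to 3.43%.

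The partner subunits encoded in mitochondrial DNA did not follow the nuclear set. They made up 3.26%, 3.02%, 2.76% and 2.98% of UMIs in germ-cell-like cells from E11.5 to E14.5, and 3.44%, 3.57%, 4.81% and 5.69% in epithelium-like cells. They were thus lower in the germ-cell-like class at each stage, and the gap was widest at E14.5. The mitochondrial share of UMIs was also a cell filter, and a stricter limit acted unequally on the classes. With at most 5% mitochondrial UMIs, epithelium-like cells went from 1886 to 1029 at E13.5 and from 1612 to 432 at E14.5. Germ-cell-like cells went from 1394 to 1369 and from 1167 to 1105. The part of this filter in the gap was not tested. At E14.5, 8 of 12 tested mitochondrially encoded genes were lower by at least 1.5-fold in the germ-cell-like class and 0 were higher (all genes 30.3% and 48.5%). At E13.5 mt-Atp6, a subunit of complex V, stood at 3500 CPM in germ-cell-like and 9402 CPM in epithelium-like cells.

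Single genes were compared by the CPM of whole classes, among genes at 50 CPM or more in either class. A gene was called higher or lower at a ratio of at least 1.5. At E11.5, 18 members were higher and 4 lower in germ-cell-like than in epithelium-like cells, of 77 tested (of all genes, 31.9% were higher and 30.4% lower). At E12.5 the counts were again 18 and 4 (all genes 33.3% and 29.5%), at E13.5 they were 31 and 5 (46.4% and 24.8%), and at E14.5 they were 34 and 10 (48.5% and 30.3%). At every stage the members' shares of higher and of lower calls were both below those of all genes.

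The members' median log2 ratio was 0.17, 0.24, 0.42 and 0.46 over the stages E11.5 to E14.5, while that of all genes was 0.10, 0.14, 0.47 and 0.53. Relative to the all-gene median the members were therefore slightly above it at the first 2 stages and slightly below it at the last 2. When each comparison was scaled to the all-gene median, 14 members were higher and 7 lower at E11.5, 14 and 10 at E12.5, 18 and 19 at E13.5, and 16 and 22 at E14.5. The median member changed sign with the scaling at E13.5 and E14.5 (to -0.049 and -0.071).

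Called higher in the germ-cell-like class at all 4 stages were 10 members, and none was lower at all 4. In complex I these were Ndufab1, the mitochondrial acyl carrier protein, Ndufs7, a core subunit with an iron-sulfur cluster near the ubiquinone site, and the accessory subunits Ndufb6, Ndufs5 and Ndufs6. In complex IV they were Cox5a, Cox7a1, Cox7a2 and Cox7c, and in complex V Atp5g2, 1 of 3 genes for the proton-carrying subunit c. Of all genes, 19.0% were higher at all 4 stages and 21.4% lower, so the share of members that were higher throughout is not above the background. Cox5a ran at 1328, 1309, 1134 and 1460 CPM in germ-cell-like cells and at 603, 598, 357 and 330 CPM in epithelium-like cells. Its germ-cell-like level changed little, while its epithelium-like level was lower at E13.5 and E14.5, and the 2 ranges did not overlap. The ratio of Cox5a at E14.5 was 4.42 (4.28 to 4.57).

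At E14.5, 19 of the 36 complex I members were higher in the germ-cell-like class (52.8%, near the 48.5% of all genes) and 1, Ndufs4, was lower (2.78%, all genes 30.3%). The summed level of complex I was 1.71 times that of the epithelium-like class. The summed ratio was 1.79 for complex II, 1.24 for complex III, 1.45 for complex IV and 1.35 for complex V, and the all-gene median fold of 1.44 lay above those of complexes III and V, which thus fall below 1 when scaled to it. The 7 nuclear core subunits of complex I, which carry the flavin and the iron-sulfur clusters, were together 2.31 times as high in the germ-cell-like class, with 5 of 7 higher. Ndufs1, the largest of these core subunits, stood at 60.1, 56.6, 70.01 and 91.8 CPM in germ-cell-like cells and at 50.4, 39.8, 19.8 and 20.0 CPM in epithelium-like cells. Its ratio was 3.54 (3.16 to 3.99) at E13.5 and 4.58 (4.01 to 5.25) at E14.5. Ndufs1 overlaps the long non-coding RNA gene Ino80dos on the opposite strand, so its counts are uncertain if strand was not used. The member with the second-largest ratio at E14.5 was Atp5f1, subunit b of the peripheral stalk of complex V, at 5.07 (4.89 to 5.26), and Ndufb6 stood at 5.00 (4.73 to 5.28).

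**Figure D2:**
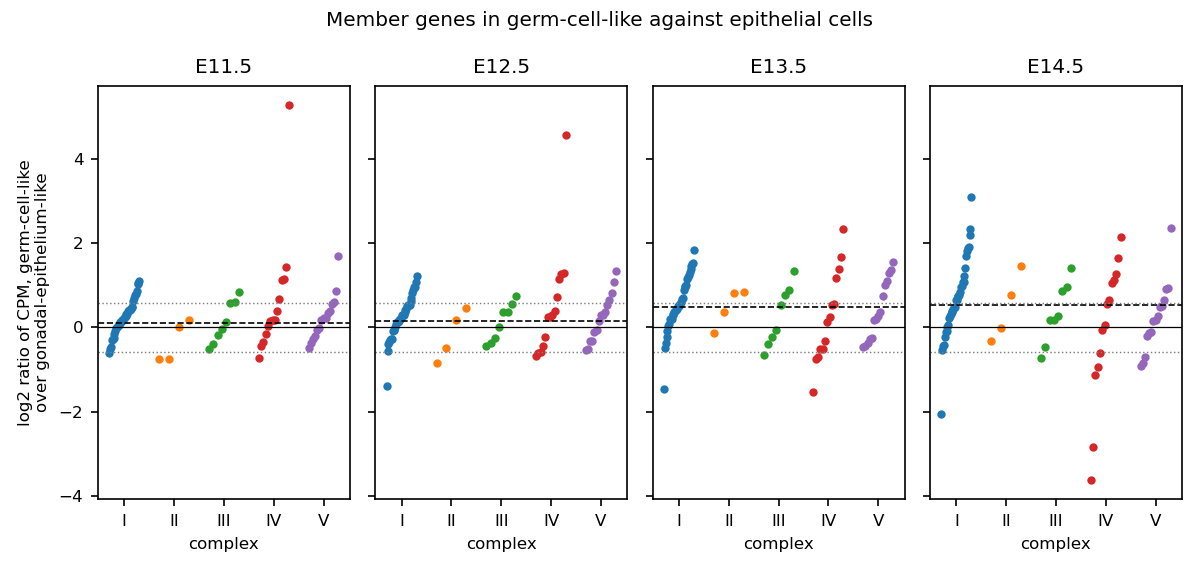
Log2 ratio of CPM, germ-cell-like over gonadal-epithelium-like class sums, for each member with a level, by complex and stage; the dashed line is the median of all genes and the dotted lines mark 1.5-fold. At E13.5 and E14.5 the dashed line lies at 0.47 and 0.53, so members between 0 and that line change sign when scaled to it.

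Complex II as a sum went the other way at the first stages, with 0.0513% of UMIs in germ-cell-like and 0.0587% in epithelium-like cells at E11.5. The gap was small at E12.5 (0.0517% and 0.0538%). Not every subunit took part, as Sdhb stood at 224 CPM in germ-cell-like and 199 CPM in epithelium-like cells at E11.5. Sdhc and Sdhd, which anchor succinate dehydrogenase in the membrane, were lower in germ-cell-like cells at E11.5, at 67.8 and 76.9 CPM against 114 and 129 CPM. At E14.5 Sdhc was higher in germ-cell-like cells, at 141 against 82.7 CPM, and Sdhb, the iron-sulfur subunit, stood at 399 against 147 CPM. Sdha, the flavoprotein that oxidises succinate, was at 68.5 CPM in germ-cell-like and 69.0 CPM in epithelium-like cells at E14.5, a difference within counting error. The 4 subunits of a single enzyme thus stood at unequal ratios to the epithelium-like class.

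Between E11.5 and E14.5 the germ-cell-like cells changed in the balance of their subunits. Of 77 tested members, 21 were higher at E14.5 and 12 lower (all genes 37.4% and 34.4%). The median member did not move (log2 ratio -0.02, all genes 0.02). Under scaling to the all-gene median the counts were 20 and 13. Both shares of members were below those of all genes, while single members changed by more than 10-fold.

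The largest fall was that of Cox7b, an X-linked nuclear subunit of complex IV (ENSMUSG00000031231, chrX:106015700-106022450). It was measured at 618, 769, 290 and 45.6 CPM in germ-cell-like cells from E11.5 to E14.5. In epithelium-like cells of the same libraries it stood at 388, 467, 364 and 326 CPM. Germ-cell-like cells were above the epithelium-like cells up to E12.5 and below them from E13.5. The ratio of E14.5 to E11.5 was 0.0738 (0.0672 to 0.0810), a fall of 13.6-fold.

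Cox8a, the ubiquitous isoform of the smallest complex IV subunit (ENSMUSG00000035885, chr19:7215153-7217616), was measured at 889, 884, 405 and 95.9 CPM in germ-cell-like cells. The epithelium-like cells held 878, 1032, 1169 and 1188 CPM. The classes were alike at E11.5 and moved apart from E12.5. The fall in germ-cell-like cells was 9.27-fold (8.68 to 9.91), and at E14.5 the epithelium-like level was 12.4 times as high (11.7 to 13.2). Neither Cox7b nor Cox8a overlaps another listed gene.

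Other subunits of complex IV did not fall with these. Cox4i1 stood at 1701, 1740, 1899 and 2000 CPM in germ-cell-like cells, Cox6c at 1344 to 2349 CPM, and Cox7c at 2315, 3399, 3350 and 4291 CPM. Cox4i1 overlaps the listed gene Gm20388 on the same strand by 5986 bases, and how reads shared by both were counted is not given. The summed level of complex IV was 1.21 times as high at E14.5 as at E11.5. Ndufa4, a complex IV subunit once counted with complex I, stood at 692, 721, 584 and 561 CPM and was not called over the stages, but it was lower than in epithelium-like cells in each library from E12.5 on (1154, 992 and 1085 CPM). Cox6a1 stayed at 541 to 597 CPM and Cox6b1 at 421 to 570 CPM. Complex IV thus held both the 2 largest falls of the set and members that were higher at E14.5 (Cox5b, Cox6c, Cox7c and Cox7a2l).

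**Figure D3:**
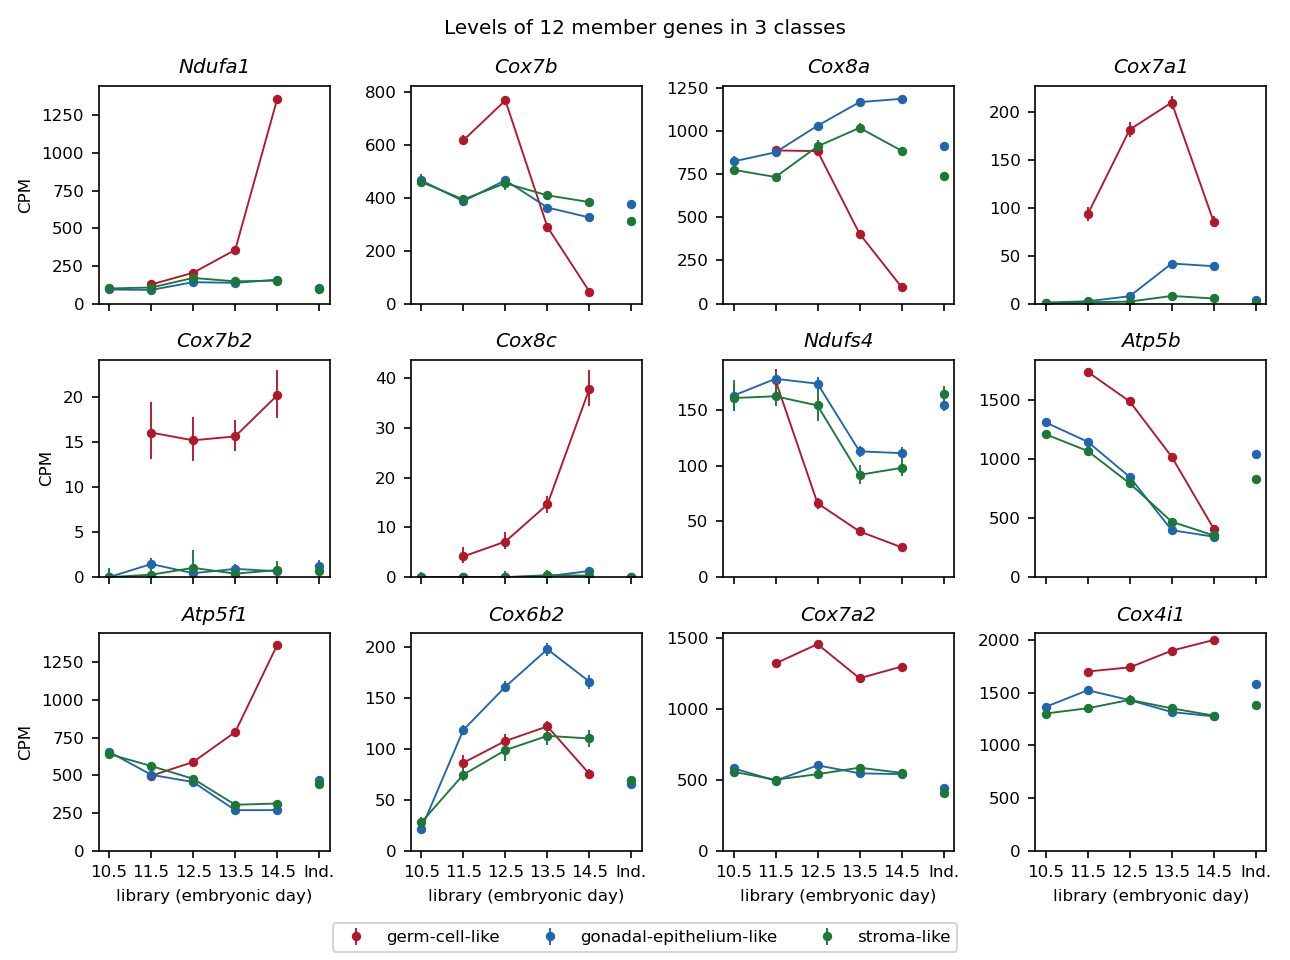
Level in CPM by library in germ-cell-like, gonadal-epithelium-like and stroma-like class sums, 1 panel per member and each panel on its own scale from 0; bars are exact Poisson 95% intervals for counting error. Cox7b and Cox8a fall to 45.6 and 95.9 CPM in germ-cell-like cells at E14.5, where Ndufa1 reaches 1359 CPM.

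The largest rise was that of Ndufa1, an X-linked accessory subunit of the membrane arm of complex I (ENSMUSG00000016427, chrX:37187588-37191163). It was measured at 127, 204, 357 and 1359 CPM in germ-cell-like cells, and at 90.6, 142, 137 and 159 CPM in epithelium-like cells. It was higher at each successive stage in germ-cell-like cells, with the largest step between E13.5 and E14.5. The ratio of E14.5 to E11.5 was 10.7 (9.99 to 11.51). The third X-linked member, Ndufb11, ran from 377 to 457 CPM and was not called. The 3 X-linked members therefore included 1 that rose, 1 that fell and 1 that was not called.

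Of 36 complex I members, 10 were higher and 1 lower at E14.5 than at E11.5 (all genes 37.4% and 34.4%). Both shares were below those of all genes. Ndufv2, a core subunit of the NADH-oxidising part, was measured at 199, 225, 305 and 566 CPM (ratio 2.84, 2.68 to 3.02), and the accessory subunit Ndufa6 at 502, 707, 1005 and 1251 CPM (2.49, 2.40 to 2.59). Both were higher at every successive stage. The 1 member that fell was Ndufs4, an accessory subunit that holds the NADH-oxidising part in place (ENSMUSG00000021764, chr13:114287795-114388258), with 177, 66.3, 41.0 and 26.8 CPM. Its fall was 6.59-fold (5.80 to 7.51), and it overlaps no other listed gene. Across the set 15 members were higher and 11 lower at every step from E11.5 to E14.5 (19.5% and 14.3%, against 24.3% and 24.1% of all genes).

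Members of complex V moved in both directions in germ-cell-like cells. Among those that fell, Atp5b (catalytic beta subunit) was measured at 1735, 1485, 1018 and 409 CPM, Atp5a1 (alpha) at 484, 392, 232 and 167 CPM, and Atp5c1 (gamma) at 647, 579, 464 and 174 CPM. The ratios of E14.5 to E11.5 were 0.236 (0.228 to 0.244) for Atp5b and 0.270 (0.256 to 0.285) for Atp5c1. In contrast Atp5e (epsilon) was measured at 673, 981, 1185 and 1596 CPM, and Atp5f1, the stalk subunit b, at 497, 588, 787 and 1365 CPM. Their ratios were 2.37 (2.29 to 2.45) and 2.75 (2.64 to 2.85). Of 15 tested complex V members, 5 fell and 2 rose, while of all genes 34.4% were lower and 37.4% higher. The share that fell was thus near that of all genes. The summed level of complex V was 0.905 times that at E11.5.

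Atp5b fell in the somatic classes too. It was measured at 1308, 1144, 847, 397 and 342 CPM in epithelium-like cells from E10.5 to E14.5, with 1039 CPM in Induced D6, and at 1207, 1066, 792, 468 and 352 CPM in stroma-like cells, with 827 CPM in Induced D6. It was lower at every successive stage in all 3 classes. Atp5f1, which rose in germ-cell-like cells, also fell in epithelium-like cells, at 504, 455, 269 and 269 CPM over the same stages. It overlaps Wdr77 on the opposite strand by 731 bases, and whether counting used strand is not given in the sources used here.

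Germ-cell-like cells were heterogeneous from E12.5, and the levels of these members followed the clusters. Clustering had left the members out. At E13.5 Cox7b was measured at 467 CPM in cluster 4 (601 cells), 142 CPM in cluster 3 (442 cells) and 59.5 CPM in cluster 6 (319 cells). In the same clusters Sycp1, a protein of the meiotic synaptonemal complex, stood at 52.0, 169 and 390 CPM, and the pluripotency gene Pou5f1 at 310, 225 and 115 CPM. Cox8a ran in the same order as Cox7b, at 639, 206 and 115 CPM, and Ndufa1 in the reverse order, at 227, 348 and 688 CPM. At E14.5 the 5 clusters held 28.0 to 98.9 CPM of Cox7b, with the highest value in cluster 11, where Sycp1 was lowest (348 CPM). Ndufa1 at E14.5 ran from 613 CPM in that cluster to 2046 CPM in cluster 16, where Sycp1 was highest (2274 CPM). Every E14.5 cluster was below every E12.5 cluster in Cox7b (720 to 814 CPM) and above every one in Ndufa1 (184 to 224 CPM).

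**Figure D4:**
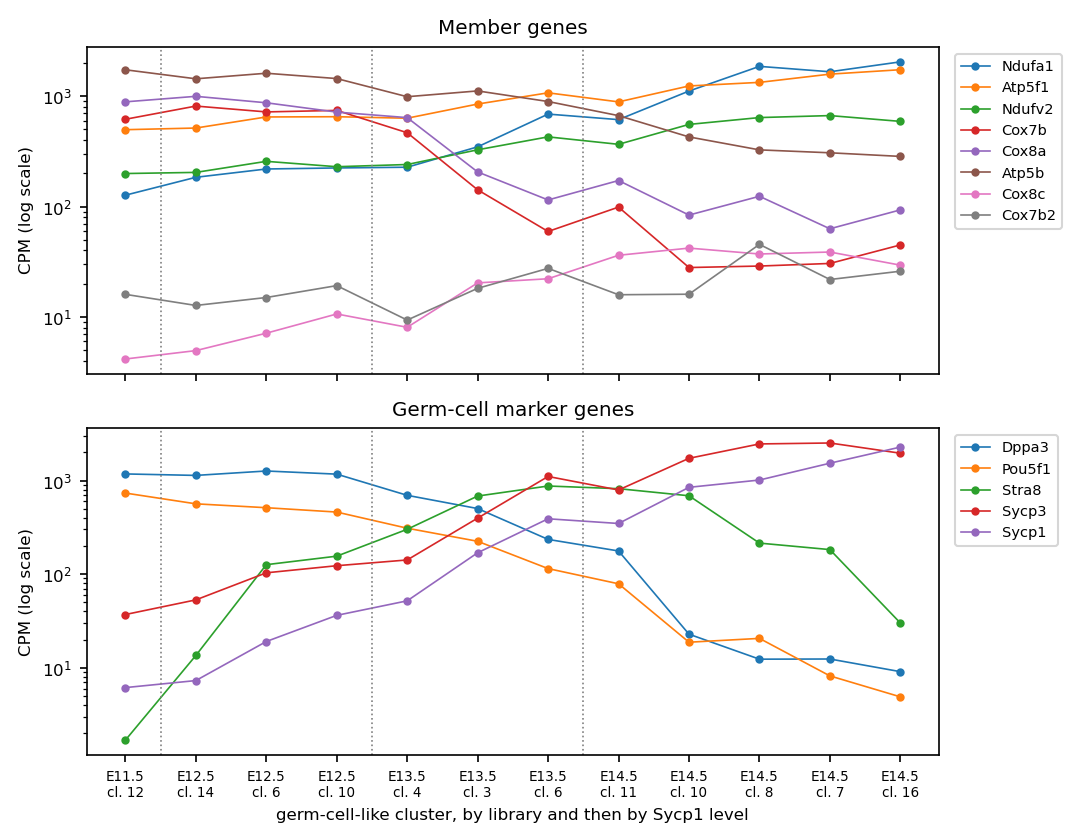
Level in CPM (log axis) of 8 members (top) and of germ cell marker genes (bottom) in each germ-cell-like cluster; clusters are ordered by library and by Sycp1 level within a library, dotted lines divide the libraries, and each point is a sum over the cells of a cluster. Within E13.5, Cox7b runs from 467 to 59.5 CPM while Ndufa1 runs from 227 to 688 CPM.

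The shares of paralogues within a subunit changed with these levels. Shares are of the UMIs of the genes named, and capture may differ between genes, so they are compared between classes and not between genes. Cox8c, the testis-type paralogue of Cox8a, was measured at 4.16, 7.14, 14.6 and 37.9 CPM in germ-cell-like cells from E11.5 to E14.5. In epithelium-like cells it stood at 0, 0, 0.161 and 1.24 CPM. Its share of the UMIs of Cox8a, Cox8b and Cox8c was 0.466%, 0.801%, 3.48% and 28.3% in germ-cell-like cells, so the share was larger at each stage, with a rising Cox8c and a falling Cox8a. After thinning every cell to 3000 UMIs, Cox8c was found in 0.673%, 1.95%, 3.33% and 10.6% of germ-cell-like cells (unthinned 8.41%, 11.4%, 17.7% and 28.5%). In epithelium-like cells it was found in 0 of 1317 thinned cells at E11.5, and in 0.461% at E14.5. The count of 0 allows a share of up to 0.228% of cells with a UMI at this depth and sets no limit on cells that express the gene.

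Cox7b2, the testis-type paralogue of Cox7b, differed from Cox8c in that its level held steady. It was measured at 16.0, 15.2, 15.6 and 20.1 CPM in germ-cell-like cells and at 0.433 to 1.45 CPM in epithelium-like cells of the same stages. Its share of the pair was 2.53%, 1.93%, 5.10% and 30.6%. The share at E14.5 was larger mainly through the lower count of Cox7b. Neither paralogue reached the 50 CPM needed for a call.

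Cox7a1, known as the heart and muscle isoform of a complex IV subunit (ENSMUSG00000074218, chr7:30184144-30186078), was measured at 93.0, 182, 210 and 85.3 CPM in germ-cell-like cells. In epithelium-like cells it stood at 2.40, 7.65, 41.8 and 39.0 CPM. The germ-cell-like values lay above all epithelium-like values, and the ratio narrowed from 38.7 (28.8 to 53.1) at E11.5 to 23.7, 5.02 and 2.19 at the later stages. As a share of the germ-cell-like level, the epithelium-like level of Cox7a1 was 2.58%, 4.22%, 19.9% and 45.7%, against 0.389% to 2.55% for the summed germ cell markers in the same cells. Single markers at 50 CPM or more in germ-cell-like cells reached up to 3.89%, 3.76%, 10.1% and 2.14% at the same stages. The E11.5 value of Cox7a1 lay within the range of these markers, and its E12.5 value was close to their highest. The part of stray germ cell RNA in these levels was not tested. At E13.5 it was found at 33.4 to 75.1 CPM in the 3 supporting-lineage-like clusters and at 8.15 CPM in the mixed cluster, and at E14.5 at 35.6 to 65.2 CPM in supporting-lineage-like clusters, 9.95 CPM in the coelomic-epithelium-like cluster and 2.95 to 7.61 CPM in stroma-like clusters. The epithelium-like signal at E13.5 and E14.5 thus lay mostly in the supporting-lineage-like clusters.

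In thinned cells Cox7a1 was found in 25.6% of 297 germ-cell-like cells at E11.5, 43.9% of 565 at E12.5, 45.0% of 1352 at E13.5 and 20.4% of 1054 at E14.5 (unthinned 78.3%, 88.6%, 88.1% and 47.2%). The epithelium-like shares were 0.456% at E11.5 and 2.29% at E12.5, and it was found in 234 of 1873 cells at E13.5 and 190 of 1520 at E14.5 (unthinned 3.39%, 7.26%, 28.0% and 22.8%). Within the 3 genes of this subunit, the germ-cell-like cells also held a smaller share of Cox7a2l, which is known for joining complexes III and IV: 20.3%, 17.7%, 26.8% and 34.7%, against 47.1% to 57.3% in epithelium-like cells of the same stages and 62.7% in Induced D6. The ranges of the classes did not overlap. Cox7a2l had a 1.66-fold higher level in epithelium-like than in germ-cell-like cells at E11.5.

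The 3 genes for subunit c of complex V shifted within germ-cell-like cells. Atp5g1 was measured at 1534, 1492, 1215 and 565 CPM, Atp5g2 at 1272, 1355, 1622 and 1256 CPM, and Atp5g3 at 302 to 471 CPM. The share of Atp5g1 was 48.6%, 45.5%, 36.7% and 26.6%, and that of Atp5g2 rose from 40.3% to 59.2%. In epithelium-like cells of E10.5 to E14.5 the share of Atp5g1 stayed between 32.3% and 41.0%. At E11.5 the level of Atp5g1 was 3.20 times as high in germ-cell-like as in epithelium-like cells (3.11 to 3.30), and at E14.5 the values were 565 and 608 CPM.

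Cox6b2, the testis-type paralogue of Cox6b1 (ENSMUSG00000051811, chr7:4751792-4753094), was found in germ-cell-like and somatic classes. It was measured at 21.6, 119, 161, 198 and 166 CPM in epithelium-like cells from E10.5 to E14.5. Stroma-like cells held 27.8, 74.7, 98.8, 113 and 110 CPM, and germ-cell-like cells 86.4, 108, 122 and 75.4 CPM from E11.5. The epithelium-like class was above both other classes from E11.5 on. In thinned cells it was found in 6.64%, 28.8%, 36.0%, 46.4% and 37.8% of epithelium-like cells (unthinned 14.1%, 67.7%, 71.2%, 76.8% and 63.7%), and in 2 of 160, 1 of 52, 0 of 51, 10 of 80 and 9 of 63 endothelium-like cells of the same 5 stages (unthinned 7.55% to 48.8%). The 0 of 51 allows up to 5.88% of cells with a UMI. The endothelium-like classes of E13.5 and E14.5 also held 1349 and 1397 CPM of supporting lineage markers. The part of this admixture in their Cox6b2 counts was not tested. The erythroid-like cells of E10.5 and E11.5 held it in 28.7% and 37.2%. The highest cluster was the supporting-lineage-like cluster 0 of E12.5, at 259 CPM.

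The 7 members that stayed under 50 CPM in every class were Cox7b2 and Cox8c, described above, Cox4i2, Cox6a2, Cox8b, Atp5s and the second identifier of Atp5o, which had 3 UMIs in all libraries together. Cox4i2, the paralogue of Cox4i1 known from lung and low oxygen, reached at most 19.0 CPM in a class and, among clusters of at least 50 cells, was highest in 2 unnamed E10.5 clusters, at 68.2 CPM in cluster 24 (led by Cxcl14 and Wnt6) and 47.4 CPM in cluster 23 (led by Rbp4 and Apoa1). It was also among the 10 leading genes of a stroma-like E14.5 cluster of 25 cells. The muscle isoforms Cox6a2 and Cox8b reached 7.91 CPM (8 UMIs) and 15.8 CPM (16 UMIs) in E10.5 cluster 10, whose leading genes Mylpf, Tnnc2 and Acta1 are skeletal muscle genes. In the named classes Cox6a2 reached at most 1.17 CPM, in E14.5 epithelium-like cells. Cox8b there reached at most 2.73 CPM, in E12.5 stroma-like cells, with 8, 12 and 12 UMIs in the stroma-like cells of E12.5 to E14.5 and 17 in those of Induced D6. An unnamed E13.5 cluster of 56 cells held 2 UMIs of Cox8b.

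From E10.5 to E11.5 in epithelium-like cells, 6 members were higher and 0 lower of 76 tested (all genes 15.1% and 20.1%), and with scaling to the all-gene median (log2 -0.17) 9 were higher and 0 lower. The largest was Cox6b2, 5.48 times as high (4.38 to 6.95). The other 5 were Ndufb4 (1.77), Cox6c (1.76), Ndufa6 (1.74), Uqcr10 (1.56) and Cox7a2l. The E10.5 class is coelomic-epithelium-like cluster 9 alone (495 cells), whereas the E11.5 class also pools supporting-lineage-like clusters. At E11.5 Cox6b2 stood at 72.9 to 82.7 CPM in coelomic-epithelium-like and at 110 to 170 CPM in supporting-lineage-like clusters. The E10.5 cluster held 21.6 CPM, and the part of class make-up in these ratios was not tested. The named members with the smallest ratios, among them Sdhb at 0.710 and Ndufb6 at 0.721, were not called. The median member stood at -0.05 on the log2 scale, and at 0.12 once scaled to the all-gene median.

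From E11.5 to E14.5 the members called lower outnumbered those called higher in the somatic classes. In epithelium-like cells 8 members were higher and 22 lower of 76 (all genes 11.1% and 37.6%), and in stroma-like cells 3 were higher and 18 lower (7.11% and 39.2%). The all-gene medians were -0.37 and -0.40, and the member medians -0.21 and -0.16. Scaled to the all-gene medians, the split turned to 20 higher and 8 lower in epithelium-like cells and to 18 and 8 in stroma-like cells, and the member medians changed sign to 0.16 and 0.24. The members' share of lower calls was thus below that of all genes, and the direction of the median member depends on the scaling.

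The summed level of the complex I core was lower on either scale. Its 7 genes summed to 0.586 of the E11.5 level in epithelium-like cells and to 0.615 in stroma-like cells. Both sums lay below the all-gene median folds of 0.773 and 0.758, which are medians over single genes. Called lower on total UMIs were 6 of the 7 in epithelium-like cells (all genes 37.6%) and 5 of the 7 in stroma-like cells (all genes 39.2%). Calls scaled to the all-gene median are not given for these 7. Ndufs1 stood at 50.4, 39.8, 19.8 and 20.0 CPM in epithelium-like and at 57.8, 47.2, 23.6 and 21.0 CPM in stroma-like cells. Ndufv1, which binds NADH, ran from 136 to 66.8 CPM in epithelium-like cells. The 2 core proteins of complex III, Uqcrc1 and Uqcrc2, both had ratios of 0.425 (0.400 to 0.451). Sdha fell from 145 to 69.0 CPM in epithelium-like and from 164 to 57.8 CPM in stroma-like cells.

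Called higher in both somatic classes were Atp5k, Ndufa3 and Atp5e. Atp5k, subunit e of complex V, which is known for its part in ATP synthase dimers, was measured at 208, 233, 543, 606 and 575 CPM in epithelium-like cells from E10.5 to E14.5. Ndufa3, an accessory subunit of complex I, stood at 147, 213, 392, 518 and 518 CPM. Both were at their highest from E13.5 on and lower in the first 2 libraries. Their E14.5 to E11.5 ratios were 2.47 (2.38 to 2.56) and 2.44 (2.35 to 2.53), and Atp5e had a ratio of 1.77. In stroma-like cells the same 3 genes were the only members called higher, at 2.34, 2.11 and 1.76. Cytosolic ribosomal protein genes rose over the same stages from 28.9% to 37.0% of UMIs in epithelium-like cells and from 24.8% to 35.8% in stroma-like cells, and their part in these ratios was not tested.

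**Figure D5:**
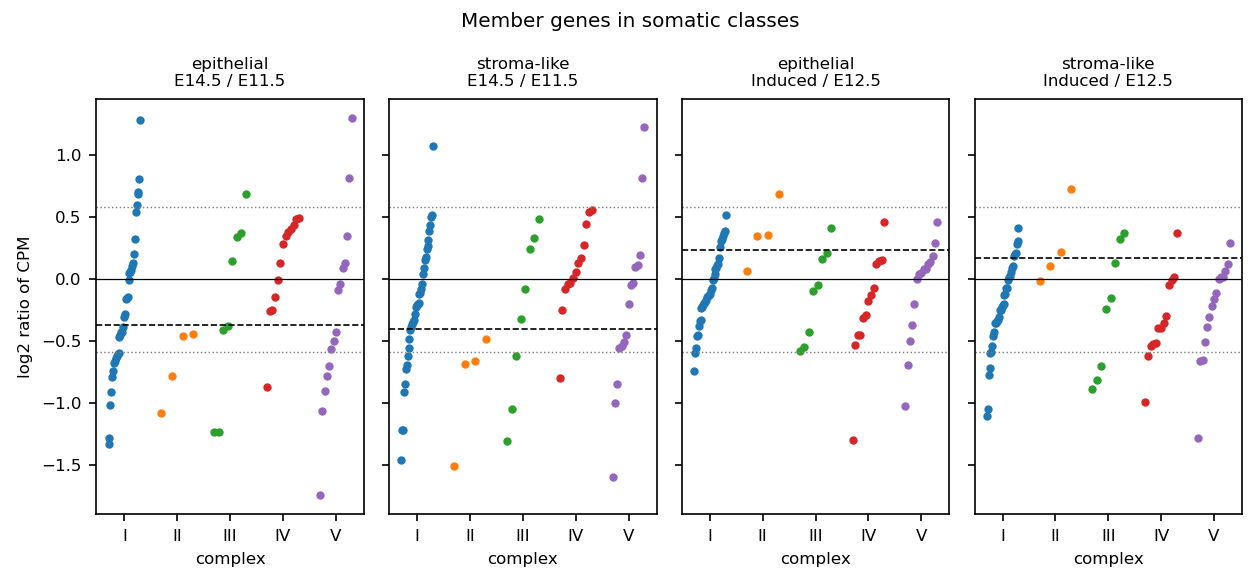
Log2 ratio of CPM for each member with a level, E14.5 over E11.5 and Induced D6 over E12.5, in gonadal-epithelium-like and stroma-like class sums; dashed lines are the medians of all genes and dotted lines mark 1.5-fold. Members between 0 and a dashed line, at -0.37 and -0.40 for the stage comparisons and 0.24 and 0.17 for Induced D6, change sign when scaled to it.

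In Induced D6, epithelium-like cells were set beside those of E12.5. Of 75 members, 1 was higher and 5 lower (all genes 26.7% and 8.05%), and in stroma-like cells 1 was higher and 14 lower (24.9% and 9.57%). The share of members called higher was below that of all genes in both classes, and the share called lower was near the background in epithelium-like cells and above it in stroma-like cells. The medians of all genes were 0.24 and 0.17 and those of the members -0.07 and -0.21. Scaled to the all-gene medians, 0 members were higher and 17 lower in epithelium-like cells, and 0 and 21 in stroma-like cells.

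The members lower in both induced classes were Atp5k, Ndufb2, Ndufa3 and Atp5e. Ndufb2 overlaps the listed gene Gm42420 on the same strand by 4022 bases, so its counts are less certain. Atp5k was measured at 267 CPM in induced and 543 CPM in E12.5 epithelium-like cells (ratio 0.491, 0.475 to 0.507), and at 227 and 550 CPM in stroma-like cells. Ndufa3 stood at 259 against 392 CPM and at 223 against 462 CPM. The induced values of these 2 genes lay close to those of E11.5 epithelium-like cells (233 and 213 CPM). Cox6b2 was lower in the induced epithelium-like cells, at 65.4 against 161 CPM, between the E10.5 and E11.5 values. The 2 classes pool unlike shares of clusters. In supporting-lineage-like clusters Cox6b2 stood at 95.7 CPM in induced cells and at 151 to 259 CPM at E12.5. In coelomic-epithelium-like clusters it stood at 45.3 to 66.3 CPM and at 65.0 to 114 CPM. Counts and medians of the members were also taken with supporting-lineage-like clusters alone, as an alternative described below. The part of class make-up in the other single induced ratios was not tested.

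Sdhd was the 1 member called higher in the induced cells, at 174 against 108 CPM in epithelium-like cells (1.61, 1.53 to 1.70) and at 138 against 83.4 CPM in stroma-like cells (1.65, 1.45 to 1.90). Once scaled to the all-gene median it no longer reached 1.5-fold. Cytosolic ribosomal protein genes made up 24.7% of UMIs in induced and 33.6% in E12.5 epithelium-like cells. Among the other energy genes, glycolysis had 7 of 12 tested genes higher and 0 lower in epithelium-like cells and 10 of 12 higher in stroma-like cells. Of the hypoxia-linked respiratory genes, 3 of 3 tested were higher in both. Of all genes, 26.7% were higher in epithelium-like and 24.9% in stroma-like cells. The all-gene medians were 0.24 and 0.17, and these list counts are not scaled to them.

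Lists of other mitochondrial and energy genes gave the setting for the germ-cell-like cells. Glycolysis genes made up 0.433%, 0.268%, 0.139% and 0.058% of UMIs in germ-cell-like cells from E11.5 to E14.5 and 1.004%, 0.624%, 0.413% and 0.332% in epithelium-like cells. They were lower in the germ-cell-like class at each stage, and at E14.5 9 of 9 tested were lower and 0 higher (all genes 30.3% and 48.5%). Between E11.5 and E14.5 in germ-cell-like cells Eno1 (enolase) went from 413 to 19.3 CPM and Aldoa (aldolase) from 618 to 50.3 CPM. Pyruvate dehydrogenase and citric acid cycle genes were higher for 10 of 14 and lower for 2 of 14 in germ-cell-like cells at E13.5 (all genes 46.4% and 24.8%). Within the germ-cell-like class 8 of 14 were lower and 3 higher at E14.5 than at E11.5 (all genes 34.4% and 37.4%).

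Among carriers of electrons and metabolites, the testis-type cytochrome c gene Cyct stood at 84.6 CPM in germ-cell-like and 0.289 CPM in epithelium-like cells at E12.5, and the somatic gene Cycs at 549 and 244 CPM. Slc25a31, a germ-cell-type ADP/ATP carrier, stood at 180 and 4.99 CPM at E13.5, and Vdac1, the main outer-membrane channel, at 32.8 and 256 CPM. Of the assembly factors of the respiratory chain, 9 of 18 were higher and 8 lower at E14.5 than at E11.5 in germ-cell-like cells (all genes 37.4% and 34.4%). Ndufaf4, an assembly factor of complex I, went from 141 to 12.7 CPM, and Ecsit, another, from 19.1 to 150 CPM. Assembly factors of the same complex thus also moved in opposite directions. Of 61 tested mitochondrial ribosomal protein genes, 32 were higher and 5 lower in germ-cell-like than in epithelium-like cells at E14.5. The share that was higher, 52.5%, is near the 48.5% of all genes, and the share that was lower, 8.20%, is below their 30.3%.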

How the data were processed

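Droplet single-cell RNA-seq (10x 3′ v2) libraries were analysed, 1 for each of the 6 groups. The values used are UMI counts of each gene in each barcode as the authors deposited them, not normalized. Reads were processed with Cell Ranger 3.0.2 on mm10, per the submitters' processing notes. Which annotation was used, how cells were called and what was done with multi-mapping reads is not given in the sources used here. Depth is given with the results.

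The members and all lists were chosen with earlier results of these data known. Barcodes entered with 500 genes or more and a mitochondrial share of UMIs up to 10%. Scrublet scores (scanpy 1.11.5) were used to remove the highest-scored cells up to an expected doublet rate of 0.8% per 1000 cells. Its automatic threshold marked 0.0158% at E10.5. Doublets within 1 cell type escape this step. Clustering was run library by library with 2000 variable genes (members and companion genes left out), 30 principal components, 15 neighbours and Leiden resolution 1. Clusters were named from 16 marker sets, with naming thresholds set after the data were seen, and a rebuilt name may differ from the study's. Classes of at least 50 cells were used.

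UMI counts were summed per class and scaled to CPM, with exact Poisson and exact conditional binomial 95% intervals. Genes at 50 CPM or more in either class were compared, and a ratio of 1.5 made a call. Calling was tested on simulated counts. Shares of cells were taken after thinning to 3000 UMIs. The allowed share for 0 cells is that of 3 cells. Of the 84 members, 84 matched GENCODE vM21 (GRCm38) for coordinates. Genes named are, per comparison, the 5 largest and 5 smallest ratios, a fixed set of subunits and isoforms, 2 companion genes at each end per list and the 10 genes most like the summed pattern. Other genes named (such as Sdhb, Ndufv1 and Cox6c) were chosen after their values were seen. In all, 12 alternatives planned and 2 added later were run for 10 comparisons.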

Additional observations from a re-analysis of the deposited data

Results flagged for a closer look

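With 1 library per stage, none of the differences between classes in this paragraph was tested. Between E11.5 and E14.5, 4 members were called higher in germ-cell-like cells and lower in a somatic class, and each difference below is on the log2 scale, germ-cell-like minus somatic. Atp5f1 went from 497 to 1365 CPM in germ-cell-like cells, from 504 to 269 CPM in epithelium-like cells and from 562 to 313 CPM in stroma-like cells, which gives differences of 2.36 and 2.30. Ndufs1 went from 60.1 to 91.8 CPM in germ-cell-like cells, with differences of 1.94 from the epithelium-like and 2.07 from the stroma-like class. Ndufv2 went from 199 to 566 CPM in germ-cell-like and from 242 to 153 CPM in epithelium-like cells, a difference of 2.17. Sdhc went from 67.8 to 141 CPM in germ-cell-like and from 147 to 91.2 CPM in stroma-like cells, a difference of 1.74. These opposite calls make up 3 of 76 members against the epithelium-like class (3.95%, all genes 4.34%) and 3 of 76 against the stroma-like class (3.95%, all genes 4.95%), so their share is not above that of all genes. Called in the same direction in germ-cell-like and epithelium-like cells were 12 members (15.8%, all genes 29.7%).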

How the results depend on the processing

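No paired analysis was possible because each group is 1 library, so no library could be left out either. Of 272 member counts under an alternative, 221 stayed within 1.5 times the reported count and 51 did not, and of 136 member medians 11 changed sign. Scaling to the all-gene median gave 7 lower at E11.5, 10 lower at E12.5, 18 higher and 19 lower at E13.5, and 16 higher and 22 lower at E14.5 in germ-cell-like against epithelium-like cells. It gave 20 higher and 8 lower for E14.5 against E11.5 in epithelium-like cells and 18 and 8 in stroma-like cells. In Induced D6 it gave 0 higher and 17 lower in epithelium-like cells and 0 higher in stroma-like cells. The medians that changed sign with it were -0.049 at E13.5, -0.071 at E14.5, 0.12 for E11.5 against E10.5, 0.16 for the epithelium-like and 0.24 for the stroma-like stages. Leaving mitochondrially encoded, ribosomal protein and haemoglobin genes out of the total gave 8 lower in germ-cell-like cells at E13.5, 19 higher and 11 lower for the epithelium-like stages, 12 and 11 for the stroma-like stages, 0 and 15 in induced epithelium-like cells and 0 higher in induced stroma-like cells. The medians that changed sign were 0.054 for the germ-cell-like stages, 0.048 for E11.5 against E10.5, 0.079 for the epithelium-like and 0.10 for the stroma-like stages. The median of the germ-cell-like stages, -0.02 as reported, was also 0.0062 with no level filter and 0.054 over thinned cells.

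A fold of 2 left 11 higher over the germ-cell-like stages, and in germ-cell-like against epithelium-like cells 8 higher and 0 lower at E11.5, 8 and 1 at E12.5, 19 and 2 at E13.5 and 19 and 4 at E14.5. It left 1 higher for E11.5 against E10.5, 2 higher and 8 lower for the epithelium-like stages, 8 lower for the stroma-like stages, 0 higher and 2 lower in induced epithelium-like cells, and 0 and 3 in induced stroma-like cells. With no level filter 9 were lower at E13.5, 10 higher for E11.5 against E10.5, 7 higher for the stroma-like stages, and 3 and 2 higher in induced epithelium-like and stroma-like cells. The 3 members higher over the stroma-like stages became 6 with at most 5% mitochondrial UMIs, with no mitochondrial filter and at clustering resolution 2. The 1 higher in induced stroma-like cells became 0 with doublets kept and at resolutions 0.5 and 2. In induced epithelium-like cells 8 were lower with at most 5% mitochondrial UMIs, and 2 higher with supporting-lineage-like clusters alone. That last alternative, and leaving out barcodes shared between libraries, were chosen after seeing the data. The causes of these changes were not tested where the construction of the alternative does not give them. Depth limits the isoforms under 50 CPM, which rest on few UMIs.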

Other observations

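Across the 28 cell classes, the genes outside the set whose log2 level followed the members' summed level most closely were Pfdn1 (Pearson r = 0.963), Lamtor2 (0.951), Sub1, Rtraf, Mrpl55, Denr, Mrpl17, Mrps16, Snrpf and Psmg4 (0.930). The classes share libraries and depth, and the 2 erythroid-like classes lie far below the others in the summed level. Over the 26 classes without them the values for these 10 genes were 0.712 to 0.901. The members' own median r was 0.69 with the erythroid-like classes and 0.54 without, against 0.38 and -0.04 for all genes with a level. The summed level is built from the members themselves, so this gap is partly given by construction. It is no measure of how far the members vary together. Cox8a was the member with the lowest value without the erythroid-like classes, at -0.59, and Ndufs6 the highest, at 0.95.

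Promoter words and stage changes were set side by side. Of the 19 members with the looser NRF1 word, 4 were higher and 3 lower in germ-cell-like cells at E14.5 than at E11.5, and of the 46 tested members with a promoter entry but without the word, 12 were higher and 6 lower. For CCGGAAG the counts were 5 higher and 1 lower of 16 with the word, and 11 and 8 of 49 without it. None of the 5 members with the full NRF1 word was called in either direction over these stages. Of the 60 without it, 16 were higher and 9 lower (all genes 37.4% and 34.4%). Against epithelium-like cells at E14.5, 2 of the same 5 were higher in germ-cell-like cells and 1 lower. Of the 60 without the word, 25 were higher there and 8 lower (all genes 48.5% and 30.3%).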
